A study of Mus musculus with 4 samples.

Results

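The proteasome is the protease that degrades ubiquitin-tagged proteins in the cytosol and nucleus. Its barrel-shaped core is built of alpha and beta subunits, and 3 constitutive beta subunits carry the cutting sites. A regulatory particle caps the core: its ring of ATPases unfolds substrates, and its lid holds the enzyme that removes ubiquitin. Dedicated chaperones assemble both parts, and other caps and an inhibitor can bind the core in their place. Embryonic stem cells are known for high proteasome activity.

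The genes described here are the Ensembl genes with symbols Psma, Psmb, Psmc, Psmd, Psme, Psmf or Psmg followed by a number, kept where the estimated count was above 5 in at least 2 libraries. Of 43496 Ensembl genes in the table, 48 carried such a symbol and 46 were kept. They comprised 17 core genes, 17 regulatory particle genes, 8 chaperone or inhibitor genes and 4 activator genes. Psmb8 and Psmb11 were the 2 left out.

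RNA was sequenced from E14 mouse embryonic stem cells, a pluripotent line of the strain labelled 12910la, grown on gelatin with serum and LIF. One group had received a pSuper puro plasmid with a random shRNA and is labelled wild type, and the other had received the plasmid with an shRNA against MERVL, an endogenous retrovirus of the 2-cell embryo, and is labelled MERVL knocked down. In both groups 1000 ng of plasmid was transfected and puromycin at 1 µg/ml was applied from 24 h for 4 days, so each library is a selected pool of transfected cells. Each group had 2 libraries, and because no label calls these separate cultures, each p-value reflects the spread among these 4 libraries alone, which may be technical. The series asked how the transcriptome differed after MERVL knockdown.

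Libraries held 11628887 to 16067854 estimated counts. Levels are given as CPM, counts per 1000000 in a TMM-scaled library, and pairs of values are always in the order replicate 1, replicate 2. The targeted element, summed over its copies, measured 4661 and 1431 CPM with random shRNA, then 1161 and 572.3 CPM with MERVL shRNA. The random shRNA libraries were thus far apart in the targeted element, and several results, though not all, are also given with either left out. Summed over 7 markers of embryonic stem cells, such as Pou5f1 and Nanog, levels ran from 7015 to 9059 CPM. Summed over 7 fibroblast markers, the levels were 30.1 and 33.8 CPM in the random shRNA libraries and 12.3 and 10.1 CPM in the MERVL shRNA libraries, and Col3a1 and Lum had no count. Most of that sum was Thy1, at 23.1 and 28.8 CPM and then 8.67 and 6.88 CPM. Summed over 5 immune markers, the levels were 20.6 and 19.3 CPM and then 13.6 and 12.3 CPM in the same order, and Ptprc, which all white blood cells carry, had no count. In bulk RNA, fewer cells of a type and less RNA per cell cannot be told apart.

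The 46 genes took 0.842% of the estimated counts in random shRNA replicate 1 (95% Wilson interval 0.837% to 0.846%, counting error only). The share was 0.784% (0.778% to 0.789%) in random shRNA replicate 2. In MERVL shRNA replicates 1 and 2 it was 0.761% (0.757% to 0.765%) and 0.793% (0.788% to 0.798%). The largest share and the next to smallest were thus both in random shRNA libraries, and the groups overlapped.

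These cells carried transcripts of the constitutive core. Levels of different genes are compared as CPM per kilobase of merged exons, averaged over the 4 libraries unless stated otherwise. The 14 constitutive core genes, Psma1 to Psma7 and Psmb1 to Psmb7, had a median of 102.3 CPM per kb, from 48.4 for Psmb1 to 248.5 for Psmb5. Psmb5 encodes the subunit with chymotrypsin-like activity. The 17 regulatory particle genes had a median of 66.1 CPM per kb, from 22.5 for Psmd11 to 150.03 for Psmd7, both lid subunits. The highest gene was 5.14 times the lowest in the core and 6.67 times in the regulatory particle, although the subunits of each part enter it in equal copy number. With the median length of coding transcripts in place of merged exons, these ratios were 4.93 and 3.34, and the lowest and highest core genes were then Psma2 and Psmb3. The order of genes thus depends on which annotated length is used.

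**Figure D1:**
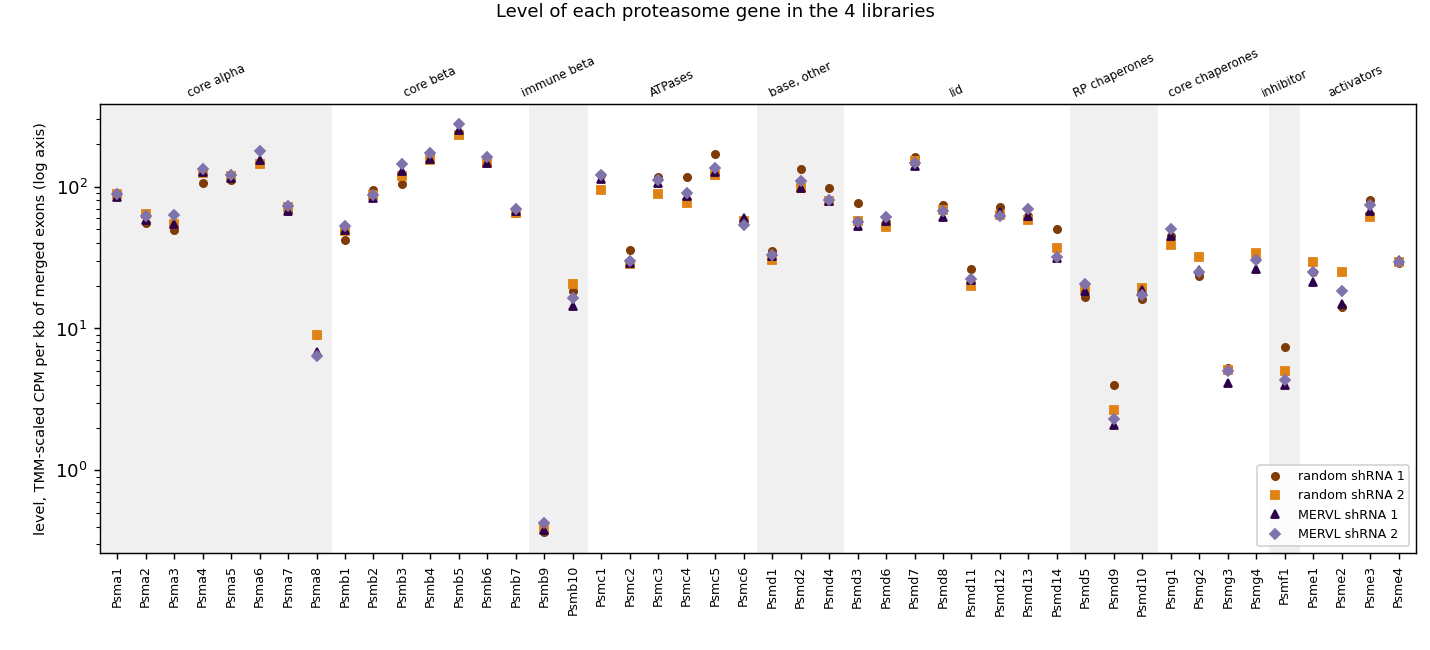
Level of each of the 46 proteasome genes in TMM-scaled CPM per kb of merged exons (log axis), with 1 point per library and genes arranged by role (RP, regulatory particle). Psmb9 lies near 0.39 CPM per kb in every library, whereas the constitutive core genes average 48.4 to 248.5 CPM per kb, and points of the 2 groups mostly lie on each other.

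The beta subunits that replace constitutive ones in other cell types were scarce, with 1 exception. Psmb8, Psmb9 and Psmb10 are the interferon-inducible catalytic subunits that take the places of Psmb5, Psmb6 and Psmb7 in the immunoproteasome. Psmb8 had 0 and 1 estimated counts in the random shRNA libraries and 0 in both MERVL shRNA libraries. Before TMM scaling, 3 counts would be at most 0.258 per 1000000 counts in any library. Psmb9 stood at 1.34 and 1.43 CPM with random shRNA and 1.38 and 1.56 CPM with MERVL shRNA. Per kilobase this was 0.230% and 0.263%, then 0.258% and 0.265%, of the level of Psmb6. Its exons overlap those of Tap1 on the other strand of chromosome 17, and the sources used here do not say whether counting used strand. Psmb10 was higher, with a mean of 17.4 CPM per kb against 0.39 for Psmb9, and stood at 31.5 and 34.9 CPM with random shRNA and 24.6 and 27.7 CPM with MERVL shRNA. It thus reached 28.4% and 31.5% of the per-kilobase level of Psmb7 in the random shRNA libraries, and 21.5% and 23.6% in the MERVL shRNA libraries. Psmb11, the subunit of the thymus, had 1 count in 1 library and none in the others.

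Psma8 encodes the alpha subunit that stands in for Psma7 in the proteasome of meiotic spermatocytes. It was measured at 22.3 and 22.6 CPM with random shRNA and 17.1 and 15.8 CPM with MERVL shRNA. Per kilobase it amounted to 13.3% and 12.6% of Psma7 with random shRNA, and to 10.2% and 8.67% with MERVL shRNA. Of 4 germ cell markers of the testis, Acr, Prm1 and Tnp1 had at most 5 counts in any library. The fourth, Ddx4, an RNA helicase of germ cells, stood at 24.7 and 27.3 CPM with random shRNA and 22.0 and 22.7 CPM with MERVL shRNA, and so also lay lower in the MERVL shRNA libraries. Its part in the Psma8 values was not tested.

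Promoters of the family were read from RefSeq (build GRCm38.p6) as windows from 250 bases before to 50 after the annotated start. The table held 41 windows for 38 of the 46 genes. The best-known regulator of proteasome genes is Nfe2l1, a transcription factor that binds antioxidant response elements, whose core TGACNNNGC was searched on both strands. It was found in 6 of the 41 windows (14.6%), beside 12.4% of all 32851 promoter windows and 15.9% of those of genes with a mean of at least 100 CPM. The matches, in capitals with flanking bases, are shown because they include both Psmb5 and Psmb6 and also Psmd9, the gene with the most negative difference below.
Psmb5 (chr14:54618022-54618054, minus strand): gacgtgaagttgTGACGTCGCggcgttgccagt
Psmb6 (chr11:70525336-70525368, plus strand): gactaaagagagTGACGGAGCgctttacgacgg
Psmc6 (chr14:45329585-45329617, minus strand): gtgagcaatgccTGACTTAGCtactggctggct
Psmd12 (chr11:107479278-107479301, minus strand): ggggggcaaatgTGACACAGCaga
Psmd9 (chr5:123228147-123228179, plus strand): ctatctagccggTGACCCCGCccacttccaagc
Psme4 (chr11:30771756-30771788, minus strand): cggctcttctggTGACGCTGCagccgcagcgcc

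A match is a description of letters and not of binding. The motif of NRF1, a regulator of mitochondrial and growth genes encoded by Nrf1 and not by Nfe2l1, reads almost alike on both strands and was found in 7 windows (17.1%), beside 4.60% of all windows and 14.0% of those of genes with a mean of at least 100 CPM. Its matches are shown, in capitals, because they fall in 3 core genes, 3 regulatory particle genes and the core chaperone gene Psmg1.
Psma2 (chr13:14613103-14613136, plus strand): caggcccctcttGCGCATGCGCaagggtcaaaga
Psma3 (chr12:70974533-70974566, minus strand): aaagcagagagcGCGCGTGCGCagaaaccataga
Psma4 (chr9:54950786-54950819, minus strand): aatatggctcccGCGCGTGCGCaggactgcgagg
Psmc4 (chr7:28050240-28050273, plus strand): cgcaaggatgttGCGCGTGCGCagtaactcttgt
Psmc5 (chr11:106256124-106256157, plus strand): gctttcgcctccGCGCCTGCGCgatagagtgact
Psmd14 (chr2:61711602-61711635, plus strand): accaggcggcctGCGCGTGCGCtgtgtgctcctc
Psmg1 (chr16:95990911-95990939, minus strand): ctgcgggccggcGCGCATGCGCtgtctgg

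CCAAT, the letters bound by NF-Y, was in 31.7% of the family's windows, 37.4% of all windows and 41.1% of those of genes with a mean of at least 100 CPM. The E-box CACGTG was in 9.76%, 7.15% and 12.7%, respectively. All motifs were searched on both strands, and matches of different motifs overlapped in 0 of the 41 windows.

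None of the 46 genes passed the test between MERVL shRNA and random shRNA. Log2 fold changes (MERVL shRNA minus random shRNA) had a median of 0.00, from -0.61 for Psmd9 to 0.30 for Psmb3. Their standard errors were 0.13 to 0.40. The same median was -0.01 over all 16353 features tested. Of the 46 genes, 37 lay within 0.2 of 0, beside 44.7% of all features. Among genes with a mean of at least 100 CPM, 1288 of 2074 did. In edgeR's quasi-likelihood test with Benjamini-Hochberg adjustment, 0.00612% of features were called higher and 0.0% lower, and the adjusted p-values of the family ran from 0.338 to 1.00. At an unadjusted p under 0.05, 4 of the 46 genes were lower and 0 higher, beside 8.92% and 4.69% of all features. DESeq2 and limma-voom also called 0 of the 46, and DESeq2 called 0.25% of features higher and 0.558% lower. With no filter on low counts edgeR called 0.991% higher and 3.76% lower, with a replicate block 0.673% and 3.84%, and 0 of the 46 genes in both. Both MERVL shRNA libraries lay above both random shRNA libraries for 10 genes and below them for 10, where the shares over all features were 22.1% and 24.1%. The share of the family without overlap was thus close to that of all features in each direction.

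**Figure D2:**
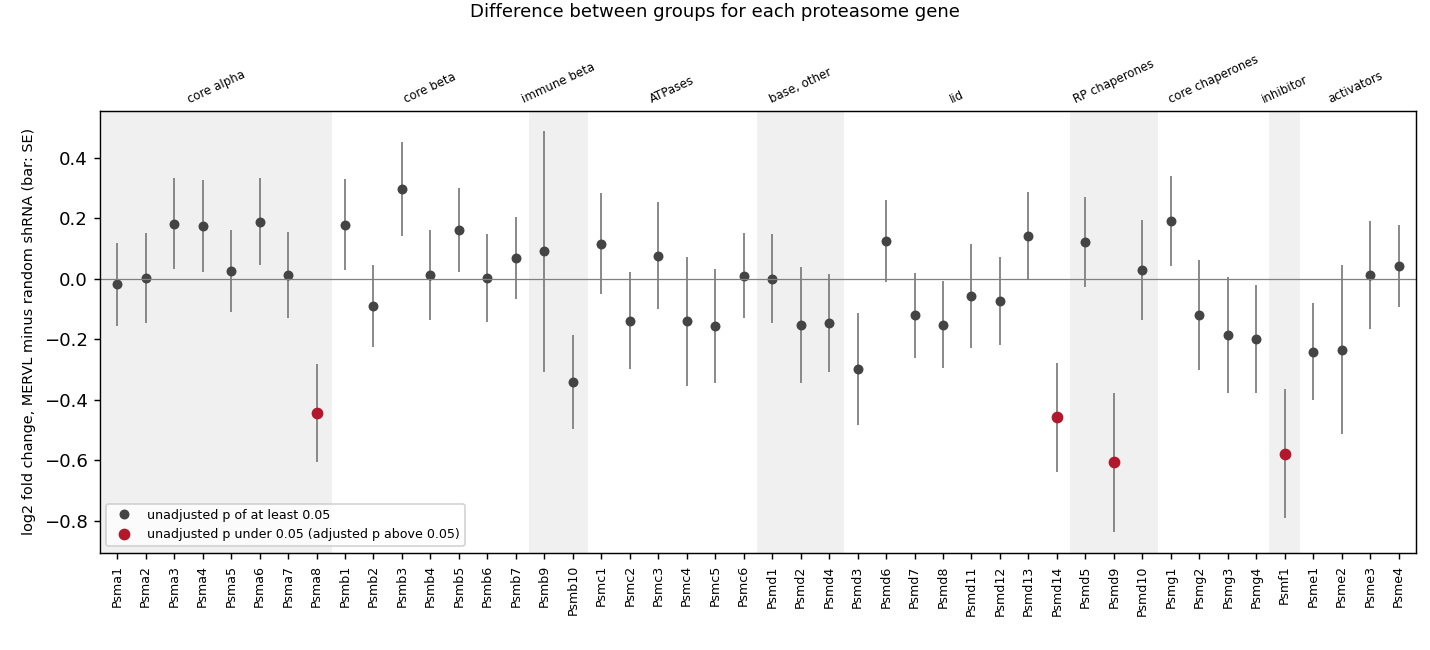
Log2 fold change of each of the 46 genes, MERVL shRNA minus random shRNA, with its standard error as a bar (edgeR, 2 libraries a group). Red points mark the 4 genes with an unadjusted p under 0.05, Psma8, Psmd14, Psmd9 and Psmf1, which lie between -0.61 and -0.44; no gene had an adjusted p under 0.05.

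Constitutive core genes lay close to 0. Positive log2 fold changes were found in 48.6% of all features (51.4% were negative). Among genes with a mean of at least 100 CPM, 1203 of 2074 were positive. Of the 14 constitutive core genes, 12 were positive, with a median of 0.05. That direction was not stable: with library size as the sole scaling 7 were positive and 7 negative, with a median of -0.01, and without MERVL shRNA replicate 2 the split was also 7 and 7. Psmb3, a structural beta subunit, had the most positive value. It stood at 239.0 and 273.4 CPM with random shRNA and 295.5 and 333.7 CPM with MERVL shRNA, with a log2 fold change and standard error of 0.30 ± 0.15 (edgeR adjusted p = 0.462). Psma6, an alpha subunit, stood at 180.4 and 177.5 CPM and then at 189.4 and 218.7 CPM (0.19 ± 0.14). In both genes the groups did not overlap, but the gap between the MERVL shRNA libraries was larger than that between the nearest libraries of the groups.

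Of the 3 constitutive catalytic subunits, Psmb5 and Psmb7 lay higher in both MERVL shRNA libraries and Psmb6 did not. Of all 14 constitutive core genes, 7 lay higher without overlap and 0 lower, beside 22.1% and 24.1% of all features. Among the 2074 genes with a mean of at least 100 CPM, 588 lay higher and 307 lower without overlap. Levels of Psmb5 were 212.8 and 209.2 CPM with random shRNA and 224.5 and 247.3 CPM with MERVL shRNA (log2 fold change 0.16 ± 0.14). Psmb7, which carries the trypsin-like activity, stood at 222.8 and 221.9 CPM and then at 230.1 and 236.3 CPM (0.07 ± 0.13). Psmb6, which carries the caspase-like activity, stood at 297.8 and 277.1 CPM and then at 274.3 and 301.4 CPM (0.00 ± 0.14). Psma7 was as close between groups, at 205.7 and 221.3 CPM and then 205.9 and 224.8 CPM (0.01 ± 0.14). The groups overlapped for Psmb6 and Psma7, and did not for Psmb5 and Psmb7, whose exons overlap Mir686 on the same strand and Nek6 on the other. Psmb2 had the lowest value of the constitutive core, at 114.0 and 104.6 CPM and then 99.7 and 105.7 CPM (-0.09 ± 0.13).

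The replacement subunits Psma8 and Psmb10 lay lower in both MERVL shRNA libraries. The random shRNA libraries were close together for Psma8. For Psmb10 they stood at 31.5 and 34.9 CPM, beside 27.7 CPM in the nearer MERVL shRNA library. For Psma8 the log2 fold change was -0.44 ± 0.16 (edgeR adjusted p = 0.338). For Psmb10 it was -0.34 ± 0.16 (edgeR adjusted p = 0.400). With either random shRNA library left out, Psma8 passed in edgeR (-0.45 with an adjusted p of 0.0367 on leaving out replicate 1, -0.42 with 0.0270 on leaving out replicate 2). Psmb10 passed on leaving out replicate 1 (-0.41, edgeR adjusted p = 0.0260) and did not on leaving out replicate 2 (-0.25, edgeR adjusted p = 0.153). These fits assume that the lone library varies like the other group. Leaving out random shRNA replicate 1 called 6.77% of all features higher and 7.28% lower, and 0 and 4 of the 46 genes. Leaving out random shRNA replicate 2 called 14.9% higher and 17.4% lower, and 2 and 8 of the 46 genes, so that passing these fits is common. Leaving out MERVL shRNA replicate 1 or 2 called 0.0116% or 0.0115% of features higher, 0.0% lower, and none of the 46 genes. Psmb9, at 0.09 ± 0.40, was too shallow to compare.

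Genes of the regulatory particle separated a single library from the others. Of the 17, 16 were higher in random shRNA replicate 1 than in random shRNA replicate 2, by a median of 0.32 on log2(CPM + 1). Among the 17 core genes 6 were higher there, with a median of -0.05. Over all features 50.1% were higher in random shRNA replicate 1, and among genes with a mean of at least 100 CPM 60.2% were, with a median of 0.09. The gap was not particular to the regulatory particle. In related gene lists, its median was 0.40 for transcriptional control (6 of 7 genes higher). It was 0.33 for shuttle receptors and their partners (8 of 9). For ubiquitin supply it was 0.18 (4 of 6), and for proteasome factors with other symbols 0.17 (8 of 11). It was -0.35 for class I antigen presentation (1 of 7). The largest gap of the regulatory particle was that of Psmc4, an ATPase, at 252.5 and 166.7 CPM with random shRNA, against 184.7 and 195.5 CPM with MERVL shRNA. Psmc5, another ATPase, stood at 235.5 and 169.8 CPM and then at 175.6 and 188.2 CPM. Psmd2, the base subunit that holds shuttle receptors, stood at 535.4 and 395.5 CPM and then at 393.0 and 443.8 CPM. In each of these 3 genes random shRNA replicate 1 stood alone above the other 3 libraries. Psmc6 was the ATPase that did not share this, at 192.5 and 201.4 CPM and then 208.8 and 187.9 CPM. The summed MERVL level was also highest in random shRNA replicate 1, and its part in this gap was not tested.

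The mRNA ratio of the parts separated the same library, but it was computed from these same genes and libraries and is not separate evidence. Per kilobase, the mean level of the 14 constitutive core genes was 1.24 times that of the 17 regulatory particle genes in random shRNA replicate 1. It was 1.56 times in random shRNA replicate 2, and 1.53 and 1.59 times in MERVL shRNA replicates 1 and 2. As sums of CPM, which weight long genes and the larger number of regulatory particle genes, the same ratios were 0.708 and 0.905, then 0.884 and 0.915. On both scales random shRNA replicate 1 had the lowest ratio. The core sum itself was 3049 and 3176 CPM with random shRNA and 3183 and 3456 CPM with MERVL shRNA. The regulatory particle sum was 4305 and 3509 CPM with random shRNA and 3600 and 3778 CPM with MERVL shRNA, so that random shRNA replicate 1 differed mainly in the regulatory particle.

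**Figure D3:**
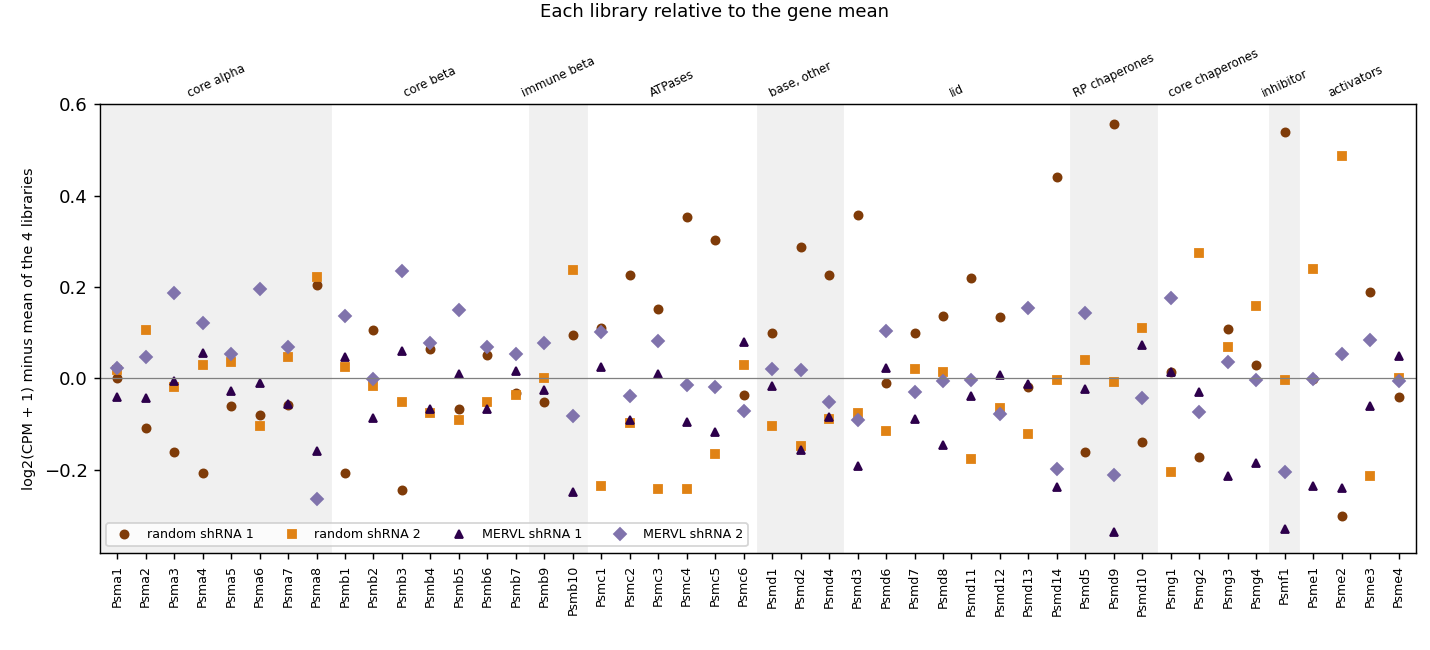
For each of the 46 genes, log2(CPM + 1) in each library minus the gene's mean over the 4 libraries, with genes arranged by role. Random shRNA replicate 1 (circles) lies at the top for most ATPase, base and lid genes, where it exceeds random shRNA replicate 2 in 16 of 17, and near or below 0 for most core genes.

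Merged exon length and base composition differed little between these parts at the median, whereas coding transcripts were shorter in the core. Median merged exon length was 2370 bp for the core and 2820 bp for the regulatory particle, and median GC content was 49.2% and 49.7%. Among all genes with a mean of at least 100 CPM, the gap between the random shRNA libraries had a median of -0.29 for those up to 1000 bp. It was -0.12 above 1000 and up to 2000 bp, 0.08 above 2000 and up to 4000 bp, and 0.16 above 8000 bp. A trend on merged exon length and GC, fitted over the genes tested, was then removed from each library. This alternative was added after the data were seen. After the removal the median gap was 0.41 for the regulatory particle and 0.01 for the core. Of the 17 regulatory particle genes, 17 were higher in random shRNA replicate 1. The gap was 0.13 among genes with a mean of at least 100 CPM (1376 of 2074 higher) and 0.05 over all features (8869 of 16353). Among those genes of at least 100 CPM, it still rose from -0.10 up to 1000 bp to 0.18 above 4000 and up to 8000 bp. The trend was thus not fully removed at that level, and its part in the gap was not tested. Coding transcript length was not used in that trend.

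**Figure D4:**
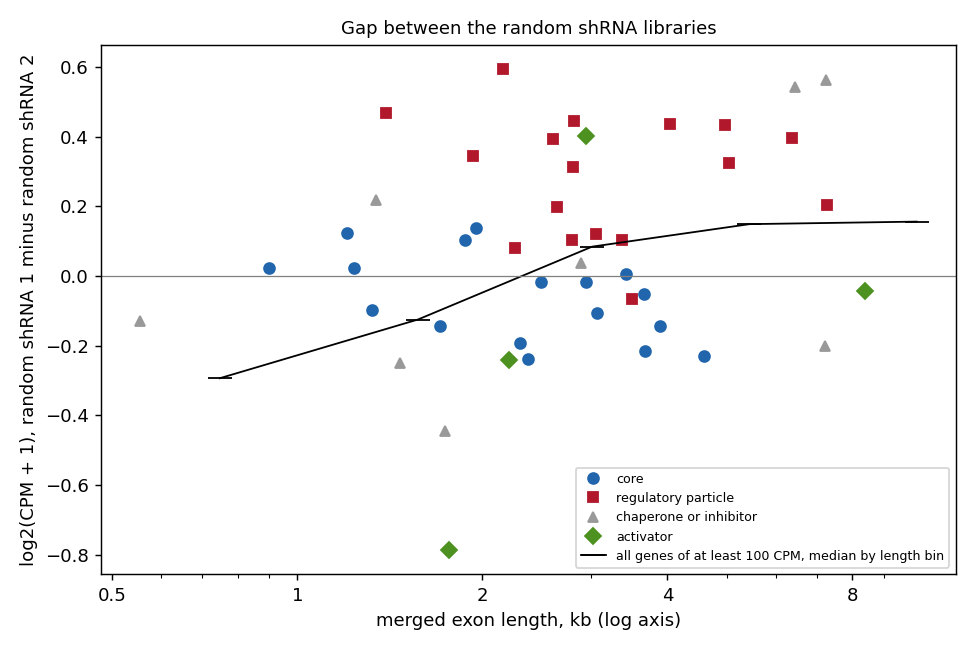
Difference of log2(CPM + 1) between random shRNA replicates 1 and 2 for each of the 46 genes, against merged exon length in kb (log axis). Bars joined by a line give the median over all genes with a mean of at least 100 CPM in 5 length bins; 16 of 17 regulatory particle genes (squares) lie above 0, and core genes (circles) lie between -0.24 and 0.14.

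Between groups, the 17 regulatory particle genes had a median log2 fold change of -0.12, and 11 were negative. Without random shRNA replicate 1 this median was 0.09 and 12 were positive, so its sign rested on that library; without the other libraries in turn it ran from -0.20 to -0.05. Of the 6 ATPases, 3 were positive and 3 negative, from -0.16 for Psmc5 to 0.12 for Psmc1, and all 6 had overlapping groups. Psmc1 stood at 234.3 and 184.1 CPM and then at 220.7 and 232.8 CPM. Psmd1, the scaffold of the base, stood at 254.4 and 220.7 CPM and then at 234.7 and 240.7 CPM (0.00 ± 0.15). The ubiquitin receptor Psmd4 stood at 276.1 and 221.9 CPM and then at 222.4 and 227.5 CPM (-0.15 ± 0.16). The lid subunit Psmd11, described as limiting for assembly in human embryonic stem cells, stood at 166.5 and 126.3 CPM and then at 139.2 and 142.5 CPM (-0.06 ± 0.17). For Psmd1, Psmd4 and Psmd11, the MERVL shRNA libraries lay between the random shRNA libraries. The lid subunit Psmd13, whose exons overlap Sirt3 on the other strand, had the most positive value of the lid, at 209.8 and 195.0 CPM and then 210.4 and 236.4 CPM (0.14 ± 0.14).

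Psmd14 was the regulatory particle gene with the largest difference. It encodes the metalloprotease of the lid that cuts ubiquitin chains from substrates, at chr2:61711694-61800376 (GRCm38, plus strand). Its levels were 141.8 and 103.9 CPM with random shRNA and 88.2 and 90.7 CPM with MERVL shRNA. Both MERVL shRNA libraries were below both random shRNA libraries, by a log2 fold change of -0.46 ± 0.18 (edgeR adjusted p = 0.353). Psmd3, another lid subunit, also lay lower without overlap, at 381.5 and 282.3 CPM and then 260.2 and 279.4 CPM (-0.30 ± 0.19), but random shRNA replicate 2 lay close to MERVL shRNA replicate 2. In both genes random shRNA replicate 1 stood far above the other 3 libraries. Without that library the value of Psmd14 was -0.21, and without random shRNA replicate 2 it was -0.65 (edgeR adjusted p = 5.36e-07).

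Psmd9 and Psmf1 had the most negative values of the family. Psmd9, an assembly chaperone of the ATPase ring, is at chr5:123169413-123250131 (plus strand), where a noncoding gene overlaps its exons on the other strand. It stood at 29.0 and 19.3 CPM with random shRNA and 15.1 and 16.6 CPM with MERVL shRNA, which gave -0.61 ± 0.23 on the log2 scale (edgeR adjusted p = 0.347), or 1.52-fold lower. Psmf1 encodes PI31, which inhibits the core in the test tube and carries proteasomes in neurons, at chr2:151715812-151744186 (minus strand). It stood at 47.4 and 32.2 CPM with random shRNA and 25.5 and 27.9 CPM with MERVL shRNA, which gave -0.58 ± 0.21 on the log2 scale (edgeR adjusted p = 0.339), or 1.49-fold lower. In both genes both MERVL shRNA values were below both random shRNA values, and random shRNA replicate 1 stood well above replicate 2. Without random shRNA replicate 1 their values were -0.28 and -0.27, and without random shRNA replicate 2 they were -0.85 and -0.81, each with an edgeR adjusted p under 0.05 (2.07e-07 and 7.56e-09).

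The other 6 chaperone genes were mixed, with 1 above and 2 below without overlap between groups, beside 22.1% and 24.1% of all features. Psmd5, a chaperone of the same ATPase ring, stood at 121.1 and 139.4 CPM and then at 133.4 and 149.7 CPM (0.12 ± 0.15), with overlapping groups. Of the core chaperones, Psmg1 stood at 60.6 and 52.0 CPM with random shRNA and 60.7 and 68.0 CPM with MERVL shRNA (0.19 ± 0.15). Psmg4 had the most negative value of the core chaperones, at 17.2 and 18.9 CPM and then 14.6 and 16.7 CPM (-0.20 ± 0.18).

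Activators showed no common direction, and the groups overlapped for all 4. Psme1 and Psme2 encode the interferon-inducible cap PA28 alpha and beta, and they lie on chromosome 14. Psme1 stood at 55.2 and 65.4 CPM with random shRNA and 46.8 and 55.2 CPM with MERVL shRNA (-0.24 ± 0.16). Psme2 stood at 25.1 and 44.1 CPM and then at 26.3 and 32.4 CPM (-0.23 ± 0.28). Its random shRNA libraries lay on either side of the MERVL shRNA libraries, and its log2 fold change was -0.59 without random shRNA replicate 1 (edgeR adjusted p = 0.000251) and 0.24 without random shRNA replicate 2. Psme3, the nuclear PA28 gamma, stood at 236.6 and 178.8 CPM and then at 198.9 and 219.8 CPM (0.01 ± 0.18). Psme4, the cap PA200, was the steadiest of the 4, at 241.0 and 248.2 CPM and then 256.6 and 247.0 CPM (0.04 ± 0.14).

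The values that the authors normalized gave another picture of the 4 genes with an unadjusted p under 0.05. In the authors' deposited table, whose normalization method is unstated, the random shRNA libraries were close together. Psmd9 had scores of 328 and 347 with random shRNA and 222 and 240 with MERVL shRNA. Psmf1 had 543 and 574, then 373 and 403. Psmd14 had 1704 and 1779, then 1282 and 1310. Psma8 had 318 and 332, then 245 and 227. With limma on log2(score + 1), these 4 genes were called lower and 0 higher, with adjusted p-values of 0.0364, 0.0370, 0.0350 and 0.0390. The log2 fold changes on that scale were -0.55, -0.52, -0.43 and -0.46. In that fit 10.3% of all features were called lower and 9.33% higher, beside 8.70% and 0.0% of the 46 genes. The share called lower was thus near that of all features. The same scores for Psmc4, 2920 and 2950 with random shRNA, no longer held the gap seen in the counts. For Psme2 the random shRNA scores were 485 and 502, beside 25.1 and 44.1 CPM. With MERVL shRNA the scores of Psma6, 2707 and 3136, kept a gap, beside 189.4 and 218.7 CPM. The limma p-values on the scores therefore do not measure the spread between the random shRNA libraries in the counts.

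Of 41 further genes of the pathway with estimated counts in the table, 40 were tested, and 0 passed in edgeR. At an unadjusted p under 0.05, 2 of the 40 were lower and 0 higher, beside 8.92% and 4.69% of all features, and the median log2 fold change was -0.06. Of those 2, Uchl5 encodes a deubiquitinase that sits on the regulatory particle. It stood at 66.2 and 71.1 CPM with random shRNA and 49.1 and 44.6 CPM with MERVL shRNA, which gave -0.55 ± 0.14 on the log2 scale (edgeR adjusted p = 0.329), with no overlap and close random shRNA libraries. Usp14, the other deubiquitinase of the particle, stood at 138.7 and 125.0 CPM and then at 126.7 and 126.4 CPM (-0.06 ± 0.14). Adrm1, the ubiquitin receptor that anchors Uchl5, stood at 226.8 and 164.5 CPM and then at 170.3 and 176.8 CPM (-0.17 ± 0.19). Random shRNA replicate 1 was the highest of the 4 libraries for Adrm1.

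The core maturation factor Pomp stood at 74.9 and 86.5 CPM with random shRNA and 73.6 and 89.3 CPM with MERVL shRNA (0.01 ± 0.16). Nfe2l1 stood at 184.3 and 139.7 CPM and then at 166.9 and 169.4 CPM (0.05 ± 0.17). For both, the groups overlapped. Of 7 genes for class I antigen presentation, which share interferon control with Psmb8 and Psmb9, 5 were negative, beside 51.4% of all features. The median was -0.41, with standard errors from 0.20 to 0.49. Tap1, Tap2, Nlrc5 and Erap1 lay at 3.27 CPM or less in every library, so that median is shallow. Irf1, a transcription factor among the 7, was the other gene with an unadjusted p under 0.05. It stood at 19.4 and 25.2 CPM and then at 13.7 and 15.8 CPM (-0.59 ± 0.20, edgeR adjusted p = 0.329). Its log2 fold change was -0.77 without random shRNA replicate 1 and -0.38 without random shRNA replicate 2. The immune markers given above also had lower sums in the MERVL shRNA libraries, and their part in this was not tested.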

How the data were processed

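The submitters' processing notes name the tools HISAT2 and Trim Galore and the build mm10, without their roles; versions, counting program and strand setting are not stated there. The authors deposited estimated counts for 45773 features (43496 Ensembl genes and 2277 MERVL copies), and a normalized score per library, described per the file headers only as counts. From 36.9% to 39.1% of counts above 0 in a library were not whole, so values of near-identical genes are uncertain. For the 46 genes that share was 58.7% to 65.2%. Of the 46 genes, 12 share exon sequence with another gene, 10 of them on the other strand.

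Symbols came from GENCODE M21 (GRCm38, also called mm10). Counts were rounded and genes and copies were tested together with edgeR 4.0.16 (R 4.3.3): TMM, filterByExpr, quasi-likelihood F test without a replicate term, 2-sided, Benjamini-Hochberg over 16353 features, threshold 0.05. Standard errors were derived from F. The scores were tested with limma 3.58.1 on log2(score + 1), keeping features whose mean score reached 1. DESeq2 1.42.0, limma-voom, other scalings and filters, a replicate block and leaving out libraries were alternatives. The fit was tested on simulated data. Members, role groups, lists and the rule for named genes (unadjusted p under 0.05, the extremes of each role group, and catalytic, replacement and activator genes in any case) were chosen with earlier results of these data known; Psmc4, Psmc6 and Psmd3 were added after their values were seen. Distances to MERVL copies were not computed, since copy names hold no positions.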

Additional observations from a re-analysis of the deposited data

How the results depend on the processing

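Of the 46 proteasome genes, 0 were called in edgeR with every other scaling, filter and prior, with genes alone, with the replicate block, with the length and GC trend removed (added after the data were seen), and in DESeq2 and limma-voom; the deposited scores called 4 lower. With 1 library left out, 0 to 2 were called higher and 0 to 8 lower. Over all features, calls higher and lower were 270 and 1023 with no filter, 68 and 152 in DESeq2, 0 higher in limma-voom, 1662 and 1838 with the scores, and 110 and 628 with the replicate block, against 1 and 0; with a library left out they ran from 2 to 2557 higher and 0 to 2985 lower. Replicate numbers are shared between groups, but with 2 pairs and no label saying what a number shares, the correlation of deviations of same-numbered libraries (0.25) does not pair them. The family's median was -0.0579 with library size only, and ran from -0.0424 to 0.0311 with a library left out. The highest over the lowest level of the regulatory particle genes was 3.34 with coding transcript lengths. Signs turned for values near 0. With library size only, log2 fold changes were -0.0032 for Nfe2l1, -0.0466 for Pomp, -0.0466 for Psma7, -0.0564 for Psmb6, -0.0571 for Psmd1, -0.0463 for Psme3 and -0.016 for Psme4. With upper quartile scaling, log2 fold changes were -0.0012 for Pomp, -0.00151 for Psma7, -0.0105 for Psmb6 and -0.0113 for Psmd1. With the scores, log2 fold changes were -0.0246 for Pomp, -0.0168 for Psma7, -0.0121 for Psmb6 and -0.00243 for Psmd1. With genes alone, log2 fold changes were -0.000232 for Psma7, -0.0112 for Psmb6, -0.0132 for Psmd1 and -0.00284 for Psme3. With the length and GC trend removed, log2 fold change was -0.00762 for Psmd1. With a library left out they ran from -0.37 to 0.0821 for Adrm1, -0.12 to 0.27 for Nfe2l1, -0.12 to 0.17 for Pomp, -0.038 to 0.10 for Psma7, -0.0528 to 0.0971 for Psmb6, -0.0314 to 0.31 for Psmc1, -0.39 to 0.19 for Psmc4, -0.36 to 0.10 for Psmc5, -0.0827 to 0.11 for Psmd1, -0.23 to 0.16 for Psmd11, -0.34 to 0.0862 for Psmd2, -0.28 to 0.025 for Psmd4, -0.59 to 0.24 for Psme2, -0.16 to 0.23 for Psme3 and -0.12 to 0.0219 for Usp14. The cause was not tested. Depth limits Psmb8, Psmb9 and Psmb11.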
